A study of Mus musculus with 3 samples.

Results

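The genes of the pre-B-cell receptor and of its first signalling steps were followed through 4 lists of open chromatin. They were 9 of the 22028 protein-coding genes of the mouse annotation: *Vpreb1*, *Vpreb2* and *Igll1*, *Cd79a* and *Cd79b*, *Lyn*, *Syk*, *Btk* and *Blnk*. They were chosen by name, for their place in the pathway and not by any value, but with earlier results of these data known. For each gene, peaks were taken that overlapped the gene body extended by 20 kb on both sides. Peaks of the 4 lists that overlapped by at least 1 bp were joined into 1 region. The windows of the 9 genes held 59 of the 50965 regions of the series.

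The lists came from ATAC-seq, in which a transposase cuts and tags DNA where chromatin is accessible. The cells were pre/pro-B-cell lines grown from mouse bone marrow after retroviral transfer of *BCR-ABL(p185)*, the oncogene that every line carried. The marrow donors had wildtype *Cdk6* on both copies (*Cdk6*+/+, here WT) or the kinase-inactive K43M form on both copies (*Cdk6* KM/KM, here K43M). Each genotype was represented by 2 lines and each line by 1 library, so the spread between lines is all the replication there is. Labels name WT replicate 2, K43M replicate 1 and K43M replicate 2. The list called WT unnumbered belongs to no labelled sample here and was placed with the wildtype lines from the description of the series, which says that 1 wildtype line was reanalysed from earlier work. Values by list are given below in the order WT unnumbered, WT replicate 2, K43M replicate 1 and K43M replicate 2.

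In a pre-B cell, the immunoglobulin heavy chain pairs with a surrogate light chain made of VpreB, encoded by *Vpreb1* or *Vpreb2*, and λ5, encoded by *Igll1*. The complex signals through Igα and Igβ, the products of *Cd79a* and *Cd79b*. The kinase Lyn phosphorylates their tails, Syk docks there, and Syk and Btk then signal through the adaptor Blnk (SLP-65). The pathway drives the expansion of pre-B cells and their passage to light-chain rearrangement, and B-cell acute lymphoblastic leukemia arises from cells around this stage.

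The 4 lists held 33038 to 39038 peaks with a median fold enrichment of 6.61 to 6.94. Fold enrichment is the deposited ratio of the pileup at a peak's summit to the local background in that library, and the percentile of a peak is its rank by -log10 q within its own list. Peak lists carry no read totals. The summit pileups recovered from the deposited values had medians of 22 to 26 read ends, so a region counted as absent from a list fell below the threshold of that list and was not shown to be closed. Of 6 B-lineage markers, *Pax5*, *Ebf1* and *Il7r* had a promoter peak in all 4 lists, *Rag1* and *Rag2* in 3 lists each, and *Dntt* in none. Of 3 genes of mature B cells, *Cr2* had one in all 4 lists, *Ms4a1* in both K43M lists only and *Fcer2a* in none. Of 6 T-cell genes, *Lck* and *Zap70* had one in all 4 lists, *Cd3d* in WT replicate 2, and *Cd3e*, *Cd4* and *Cd8a* in none. Of 5 myeloid genes, *Lyz2* had one in both WT lists and in neither K43M list, and the others had none, as did the 3 erythroid genes and the 3 genes from liver, heart and pancreas.

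A promoter window ran from 2000 bp before to 200 bp after any annotated start. Promoter sequence of the genes is shown first, because 1 short word recurred in it. RefSeq promoters (GRCm38.p6, from 250 bases before to 50 after the start) were matched for 7 of the 9 genes, with 8 entries because *Syk* has 2 starts. The E-box CAGGTG, the word bound by E proteins such as E2A, or its reverse complement CACCTG was found in 7 of these 8 promoters and in 20.2% of the 32851 promoters of the table. The 250 bases before each start are printed 5′ to 3′ on the gene's strand, with this E-box in capitals.
*Vpreb1*, chr16:16869256-16869505, minus strand: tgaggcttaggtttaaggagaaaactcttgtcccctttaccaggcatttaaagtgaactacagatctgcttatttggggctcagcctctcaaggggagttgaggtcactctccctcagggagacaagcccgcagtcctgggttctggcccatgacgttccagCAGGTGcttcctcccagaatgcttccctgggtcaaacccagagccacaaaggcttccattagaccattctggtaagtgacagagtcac
*Vpreb2*, chr16:17980315-17980564, plus strand: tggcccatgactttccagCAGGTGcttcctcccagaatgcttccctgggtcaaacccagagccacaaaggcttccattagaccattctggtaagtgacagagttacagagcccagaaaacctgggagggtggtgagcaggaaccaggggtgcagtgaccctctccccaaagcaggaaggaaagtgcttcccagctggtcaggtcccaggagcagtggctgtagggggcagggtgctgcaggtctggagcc
*Igll1*, chr16:16863986-16864235, minus strand: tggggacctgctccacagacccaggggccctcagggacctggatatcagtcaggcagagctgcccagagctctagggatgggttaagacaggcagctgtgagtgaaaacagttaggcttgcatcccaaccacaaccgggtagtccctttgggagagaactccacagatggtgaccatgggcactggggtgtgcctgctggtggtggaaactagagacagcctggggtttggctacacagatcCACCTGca
*Cd79a*, chr7:24897247-24897496, plus strand: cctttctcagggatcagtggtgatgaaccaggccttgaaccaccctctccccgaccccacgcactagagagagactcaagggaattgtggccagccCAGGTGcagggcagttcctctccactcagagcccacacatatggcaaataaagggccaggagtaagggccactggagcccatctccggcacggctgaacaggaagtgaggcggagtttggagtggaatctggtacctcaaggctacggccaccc
*Blnk*, chr19:40994222-40994471, minus strand: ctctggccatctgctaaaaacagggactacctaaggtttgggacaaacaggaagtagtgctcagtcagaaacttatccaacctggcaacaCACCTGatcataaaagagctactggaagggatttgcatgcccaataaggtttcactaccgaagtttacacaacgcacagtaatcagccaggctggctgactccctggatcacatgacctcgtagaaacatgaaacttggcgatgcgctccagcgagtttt
*Syk*, first start, chr13:52583187-52583436, plus strand: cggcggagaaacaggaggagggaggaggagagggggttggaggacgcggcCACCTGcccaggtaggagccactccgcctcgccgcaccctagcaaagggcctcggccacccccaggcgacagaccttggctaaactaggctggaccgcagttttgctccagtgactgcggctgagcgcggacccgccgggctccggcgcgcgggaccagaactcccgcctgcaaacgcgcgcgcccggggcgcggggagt
*Syk*, second start, chr13:52596632-52596881, plus strand: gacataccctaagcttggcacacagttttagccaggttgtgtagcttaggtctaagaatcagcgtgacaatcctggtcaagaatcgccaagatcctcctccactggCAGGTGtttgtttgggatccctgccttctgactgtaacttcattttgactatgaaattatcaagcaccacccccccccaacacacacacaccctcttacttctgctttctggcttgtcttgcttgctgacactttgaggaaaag
*Btk*, chrX:134583141-134583390, minus strand: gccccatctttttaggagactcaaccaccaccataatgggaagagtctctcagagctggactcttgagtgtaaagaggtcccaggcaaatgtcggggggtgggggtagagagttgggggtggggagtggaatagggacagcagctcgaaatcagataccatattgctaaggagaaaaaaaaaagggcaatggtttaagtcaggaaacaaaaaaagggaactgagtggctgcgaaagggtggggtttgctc
The word began 8 bases before the start in *Igll1*, 88 in *Vpreb1*, 154 in *Cd79a*, 160 in *Blnk*, 232 in *Vpreb2*, and 200 and 144 before the first and second start of *Syk*. Only the *Btk* promoter lacked it among the 8. *Cd79b* and *Lyn* had no entry. Within 100 bp of the summits of their start regions, a shorter stretch, the word was not found either. The *Vpreb1* and *Vpreb2* matches stood in the same stretch, since bases 145 to 300 of the *Vpreb1* promoter aligned with *Vpreb2* at 98.1% identity without a gap, so these 2 are not independent matches. The other words searched, on both strands, were rarer in these promoters. The E-box CAGCTG was in 3 of 8 (16.3% of all promoters), the Ikaros word TGGGAA in 2 (25.6%), the EBF1 word CCCNNGGG in 1 (13.7%), the RUNX word TGTGGT in 1 (16.8%), and the PU.1 word GAGGAAGT and the ETS word CCGGAAGT in none (3.20% and 3.89%). The PU.1 and ETS words share their last 6 letters, and no word contains another. A match describes the sequence and does not show that a factor binds there.

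The same words were counted within 100 bp of the summit in the 59 regions. CAGGTG was in 18 of them (30.5%), against 16.3% of 50867 regions of the series. TGTGGT was in 15 (25.4% against 22.4%), CAGCTG in 10 (16.9% against 18.0%), TGGGAA in 6 (10.2% against 15.4%), CCCNNGGG in 5 (8.47% against 15%), GAGGAAGT in 4 (6.78% against 6.92%) and CCGGAAGT in 1 (1.69% against 2.24%). These shares are descriptions over regions that share promoters and neighbourhoods, and no test was made on them.

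Open chromatin lay around all 9 genes in both genotypes. Of the 59 regions, 32 (54.2%) had a peak in all 4 lists, and 9 in 1 list. Over the series, 65.8% of the regions at promoters and 29.1% of those at no promoter had a peak in all 4 lists. The windows held 45, 50, 49 and 45 peaks, which was 0.126% to 0.146% of each list. The mean was 47.5 peaks in WT and 47 in K43M. The genotypes thus differed by -0.5 peaks, while the WT lines differed by 5 and the K43M lines by 4 (two-sided exact permutation test, p = 1, where 2 against 2 libraries cannot give a p below 1 in 3). With the same number of best-ranked peaks taken from each list, the difference was -3 peaks (exact permutation test, p = 0.333, the smallest p that this design allows). The map of peaks by distance from the start shows how the open sites were spread over each gene.

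**Figure D1:**
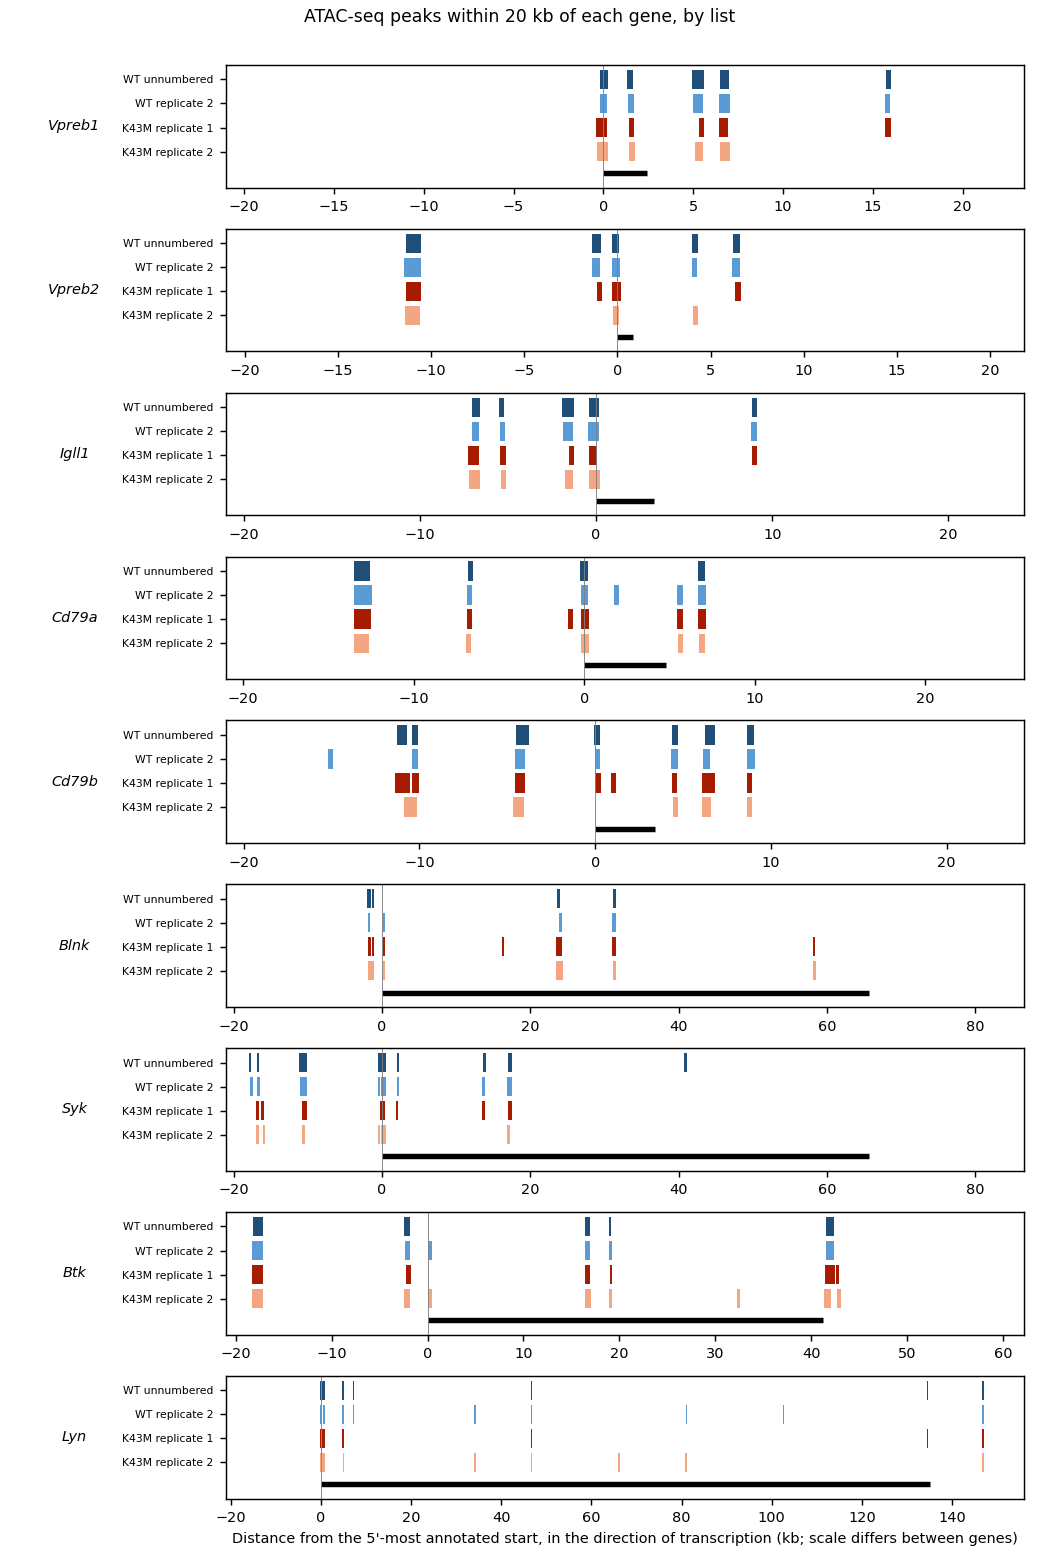
Peaks within 20 kb of each of the 9 genes, as bars along the distance from the 5′-most annotated start in kb (x axis, in the direction of transcription, with its own scale for each gene), with 1 row for each of the 4 lists; the black bar is the gene. Bars stand above each other in most places, and the windows hold between 45 and 50 peaks per list.

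Per length of window, the small genes were the most densely covered. Regions per 100 kb were 18.4 for *Cd79b*, 15.6 for *Cd79a*, 12.2 for *Vpreb2*, 11.8 for *Vpreb1* and 11.5 for *Igll1*, against a median of 3.61 over the windows of all protein-coding genes. These densities stood at percentiles 93.5 to 99.4 of all protein-coding genes. *Btk* had 9.85, *Syk* 8.52, *Lyn* 6.29 and *Blnk* 5.68 regions per 100 kb, at percentiles 89.4, 83.8, 71.3 and 67.2. The *Vpreb1* and *Igll1* windows overlap and held the same 5 regions. The ranking was not matched for gene length or for neighbouring genes. Regions at other genes' promoters count in it, at *Rps19* and *Arhgef1* for *Cd79a* and at *Top3b* for *Vpreb1* and *Igll1*. For *Btk* they lay at *Gla* and *Hnrnph2*, *Rpl36a*, *Gm15154* and *Timm8a1*. The promoter regions of *Vpreb1* and *Igll1* also count in each other's windows. The *Cd79b* and *Vpreb2* windows held no region at another gene's promoter, nor did those of *Blnk*, *Syk* and *Lyn*.

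A promoter peak was found in all 4 lists for 8 of the 9 genes, against 47.5% of all protein-coding genes. The exception was *Cd79b*, which had none in K43M replicate 2. In all, 22 regions lay at a promoter, 16 at one of the 9 genes' and 6 at another gene's. Of these 22, 14 (63.6%) had a peak in all 4 lists, against 65.8% of the regions at a promoter of any gene in the series. None of the 22 was marked in both lines of a genotype while missing from both lines of the other. Over all regions at promoters, 2.16% had this pattern for WT and 5.67% for K43M.

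**Figure D2:**
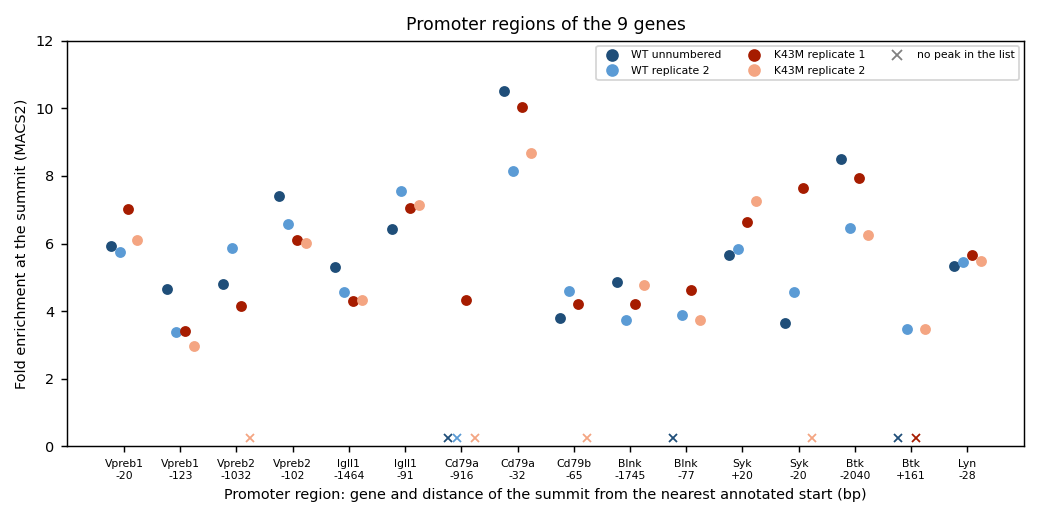
Fold enrichment at the summit (y axis) of the 16 promoter regions of the 9 genes (x axis, with the distance of the summit from the nearest annotated start in bp) in each of the 4 lists; a cross at the bottom marks a list without a peak. Of these regions, 10 have a point in all 4 lists, and the points run from 2.95 to 10.5.

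The surrogate light chain genes were open at their starts in every list. At *Vpreb1* (chr16:16868403-16870843, minus strand, GRCm38 as all coordinates here), the start of the coding transcript had a region (chr16:16869146-16869499, summit at -123 bp) with fold enrichments of 4.65, 3.39, 3.42 and 2.95. A second region at the start of an upstream transcript (chr16:16870558-16871261, summit at -20 bp) was higher, with 5.93, 5.74, 7.01 and 6.10. Both lie also in the promoter window of *Top3b*. At the first of these regions K43M replicate 1 lay within the WT range and K43M replicate 2 below it. The log2 difference there was -0.32 (K43M minus WT, SE 0.184, limma adjusted p = 0.549). At the second region both K43M values lay above the WT values. The upstream region is the highest of *Vpreb1*'s promoter and differed by a log2 value of 0.17 (K43M minus WT, SE 0.146, limma adjusted p = 0.723).

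*Igll1* (chr16:16860671-16863985, minus strand) is the neighbour of *Vpreb1* and encodes λ5. Its start region (chr16:16863786-16864419, summit at -91 bp) had fold enrichments of 6.43, 7.55, 7.07 and 7.13, with both K43M values between the WT values. This region was also the highest-ranked shared one in the *Vpreb1* window outside *Vpreb1*'s own promoter, at percentiles 79.8, 87.4, 80.2 and 81.6. A second promoter region further up (chr16:16865215-16865919, summit at -1464 bp) had 5.31, 4.56, 4.31 and 4.32, both K43M values lying below both WT values. It did not pass the test (log2 difference -0.19, SE 0.156, limma adjusted p = 0.709). For *Igll1*, the highest-ranked shared region away from its promoter was the upstream *Vpreb1* region already given. The remaining region of the shared window (chr16:16854875-16855176), downstream of both genes, had 5.94, 5.03 and 4.55 and no peak in K43M replicate 2.

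*Vpreb2* (chr16:17980428-17981273, plus strand), the second VpreB gene, lies apart from this pair on the same chromosome. Its start region (chr16:17980154-17980597, summit at -102 bp) had 7.40, 6.57, 6.12 and 6.02. Both K43M values were below both WT values, and the log2 difference of -0.20 (SE 0.151) did not pass the test (limma adjusted p = 0.677). A region further up (chr16:17979045-17979541, summit at -1032 bp) had 4.80, 5.87 and 4.15 and no peak in K43M replicate 2. The strongest site of the window was distal (chr16:17968972-17969886, summit at -10798 bp). It had 11.5, 12.3, 11.4 and 12.6, the highest values of any region around the surrogate light chain genes, and the genotypes overlapped. The 201 bases around its summit are shown because the site ranked at percentiles 84.5 to 91.4 in all 4 lists, and they hold no CAGGTG.
*Vpreb2*, distal site, chr16:17969530-17969730, plus strand: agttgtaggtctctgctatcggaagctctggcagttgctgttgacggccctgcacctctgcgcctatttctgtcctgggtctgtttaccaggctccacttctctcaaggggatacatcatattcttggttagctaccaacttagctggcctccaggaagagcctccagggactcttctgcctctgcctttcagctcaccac
The coding transcripts of *Vpreb1* and *Vpreb2* span 853 and 846 bp, and were 96.4% identical over their aligned length. The authors had removed reads that map to several places. Of the 36-base words of the *Vpreb1* start region, 24.1% also occur in the *Vpreb2* window, and of those of the *Vpreb2* start region 29.8% occur in the *Vpreb1* window. The other regions of both windows share none. The values of both start regions may thus be less certain than those of the distal site, but loss of reads there was not measured.

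*Cd79a* (chr7:24897381-24902197, plus strand), which encodes Igα, had the highest fold enrichment of all start regions among the 9 genes. Its start region (chr7:24897107-24897675, summit at -32 bp) had 10.5, 8.15, 10.0 and 8.66, the lines of 1 genotype differing more than the genotypes did (log2 difference 0.01, SE 0.171, limma adjusted p = 0.986). A weaker region in its promoter window (chr7:24896413-24896657, summit at -916 bp) had a peak in K43M replicate 1 only, at 4.34. The strongest distal site was at the promoter of *Rps19*, a ribosomal protein gene (chr7:24883888-24884909, summit at -12922 bp from *Cd79a*), with 10.1, 11.2, 10.7 and 11.8.

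*Cd79b* (chr11:106311341-106314762, minus strand), which encodes Igβ, was weaker at its start. The start region (chr11:106314466-106314819, summit at -65 bp) had 3.80, 4.59 and 4.20 and no peak in K43M replicate 2. It was thus the sole gene of the 9 without a promoter peak in a list, and the region had no limma test. Its window was the most densely covered, with 5 distal regions found in all 4 lists. The highest-ranked of these lay downstream (chr11:106307955-106308682, summit at 6172 bp) with 5.33, 4.38, 7.03 and 5.37, both K43M values above both WT values (log2 difference 0.35, SE 0.174, limma adjusted p = 0.475). Another downstream region (chr11:106310066-106310437) had 4.71, 5.01, 4.10 and 3.55, both K43M values below both WT values. The limma fit across all shared regions gave it a log2 difference of -0.35 (SE 0.148), with an unadjusted p of 0.0466 and an adjusted p of 0.395. The window of this gene thus held a site with K43M values above and a site with K43M values below the WT values, and neither passed the test.

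*Lyn* (chr4:3678115-3813122, plus strand), the Src-family kinase that starts the cascade, had nearly the same value in every list at its start. The start region (chr4:3677835-3678253, summit at -28 bp) had 5.33, 5.44, 5.65 and 5.48, with a log2 difference of 0.05 (SE 0.145, limma adjusted p = 0.939). The window held 11 regions, of which 5 had a peak in all 4 lists. The highest-ranked distal one lay in an intron (chr4:3682901-3683236, summit at 4941 bp), with 6.91, 7.16, 7.72 and 4.52, where K43M replicate 2 stood below the other 3 lists. Another intronic region (chr4:3685212-3685480, summit at 7248 bp) had a peak in both WT lists only, at 3.85 and 4.67.

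*Syk* (chr13:52583173-52648792, plus strand) encodes the kinase that docks on the phosphorylated receptor tails. Its first start region (chr13:52582609-52583718, summit at 20 bp) had 5.66, 5.84, 6.63 and 7.27, both K43M values above both WT values. The log2 difference was 0.27 (SE 0.156) and did not pass the test (limma adjusted p = 0.541). The second start (chr13:52596725-52597162, summit at -20 bp) had 3.65, 4.57 and 7.63 and no peak in K43M replicate 2, so the K43M lines held both its highest value and its absence. The strongest site was distal (chr13:52572018-52573109, summit at -10524 bp), with 10.7, 10.1, 10.6 and 9.76.

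Fold enrichment is relative to local background, and at *Syk* that background differed between genotypes. Over its 4 shared regions the median background was 198 and 183 read ends per 10 kb in the WT lists, and 107 and 78.5 in the K43M lists. Relative to the autosomal median of each list this was 0.13 and 0.15 against -0.68 and -0.90 on the log2 scale. Over chromosome 13 as a whole it was 0.05 and -0.01 against -0.43 and -0.50. With the summit pileup itself in place of fold enrichment, the difference at the first *Syk* start changed sign to -0.34 (limma adjusted p = 0.431). The part of the background in the *Syk* values was not tested further.

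**Figure D3:**
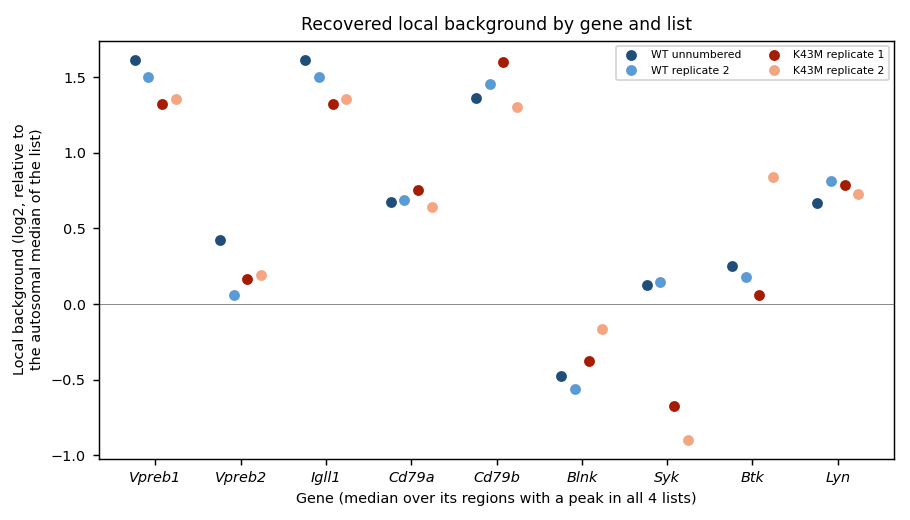
Local background recovered for each of the 9 genes (x axis) in each list, as the median over the gene's regions found in all 4 lists, on the log2 scale relative to the autosomal median of the list (y axis). At *Syk* both WT points (0.13 and 0.15) stand above both K43M points (-0.68 and -0.90), and at *Btk* K43M replicate 2 (0.84) stands above the other 3.

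*Btk* (chrX:134542336-134583570, minus strand) encodes the Tec-family kinase downstream of Syk. At its start, a region (chrX:134583056-134583523, summit at 161 bp) had a peak in 1 line of each genotype, WT replicate 2 and K43M replicate 2, at 3.47 in both. The region that counted as its promoter peak in all 4 lists (chrX:134585257-134586019) has its summit at -2040 bp, in the promoter of the ribosomal protein gene *Rpl36a*. It had 8.50, 6.46, 7.94 and 6.26 (log2 difference -0.07, SE 0.183, limma adjusted p = 0.932). The highest-ranked distal site was also at promoters of other genes, *Gla* and *Hnrnph2* (chrX:134600701-134601836), with 10.8, 10.8, 10.2 and 10.5. Within an intron of *Btk*, the region chrX:134566555-134567153 (summit at 15696 bp) had 6.51, 7.73, 10.4 and 9.80. Both K43M values were above both WT values, and its log2 difference of 0.51 (SE 0.157) was the largest of the 32 shared regions, with an unadjusted limma p of 0.0115 and an adjusted p of 0.254. As a median over the 5 shared regions of *Btk*, the local background was 261 read ends per 10 kb in K43M replicate 2. It was 178 to 216 in the other lists. At the intron region itself the background was 142, 144, 176 and 195 read ends per 10 kb, higher in both K43M lists. The summit pileups there were 24, 29, 46 and 47. The part of the background in this difference was not tested. The 201 bases around the summit are shown for this site, which has none of the words searched.
*Btk*, intron, chrX:134566677-134566877, plus strand: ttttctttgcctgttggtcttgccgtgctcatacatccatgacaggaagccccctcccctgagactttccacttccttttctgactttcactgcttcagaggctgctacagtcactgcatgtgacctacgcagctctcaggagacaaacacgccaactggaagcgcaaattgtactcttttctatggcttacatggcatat

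*Blnk* (chr19:40928927-40994535, minus strand) encodes the adaptor on which Syk and Btk meet. Its start region (chr19:40994091-40994434, summit at -77 bp) had no peak in WT unnumbered, and had 3.88, 4.63 and 3.75 in the other lists. A region further up (chr19:40995594-40996537, summit at -1745 bp) had 4.88, 3.72, 4.21 and 4.78, with the K43M values inside the WT range (log2 difference 0.08, SE 0.187, limma adjusted p = 0.927). The strongest site was intronic (chr19:40962973-40963555, summit at 30925 bp), with 10.6, 8.64, 11.0 and 9.93, and the genotypes overlapped there.

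Away from promoters, 37 regions remained. Of these, 18 (48.6%) had a peak in all 4 lists, against 29.1% of the 34130 regions of the series at no promoter. Both WT lists and neither K43M list had a peak at 2 (5.41%, against 5.67%), and both K43M lists and neither WT list at 3 (8.11%, against 8.62%). The last 2 shares were thus near those of the series. The bar plot of regions by the lists that hold a peak sets these shares beside each other.

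**Figure D4:**
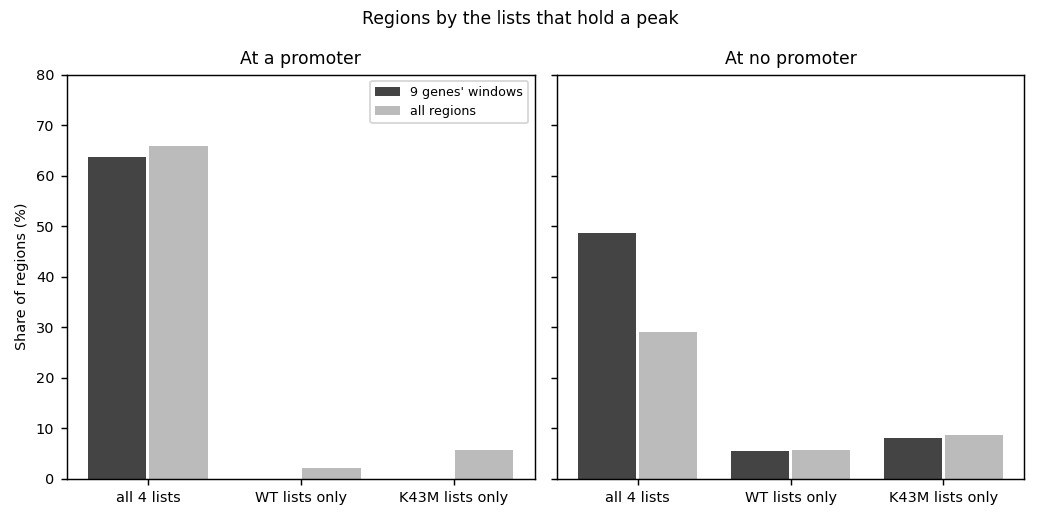
Share of regions (y axis, %) with a peak in all 4 lists, in both WT lists and neither K43M list, or in both K43M lists and neither WT list (x axis), for the 9 genes' windows (dark bars) and all regions of the series (light bars), at promoters (left) and at no promoter (right). Away from promoters, 48.6% of the 9 genes' regions and 29.1% of all regions are in all 4 lists.

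The 5 regions marked in both lines of a genotype and missing from both lines of the other belonged to *Syk*, *Lyn*, *Blnk* and *Btk*, and were low in rank. The lower of a region's percentiles had a median of 8.80 for the 2 WT regions and 19.9 for the 3 K43M regions, against 50.5 for the 32 shared regions. Over the series these medians were 18.9, 21.1 and 57.1. Upstream of *Syk*, a WT region (chr13:52565240-52565756) had 3.90 and 5.05, with K43M peaks 500 and 463 bp away. A K43M region beside it (chr13:52566859-52567333) had 5.56 and 5.04, with WT peaks 372 and 178 bp away. Between them lay a region with a peak in all 4 lists (chr13:52566220-52566680; 3.62, 4.57, 5.37 and 4.85), so both genotypes had a peak close by. The WT region in *Lyn* had K43M peaks 1986 and 2017 bp away. Past the end of *Btk*, a K43M region (chrX:134540493-134540987) had 3.90 and 4.68, with WT peaks 153 and 195 bp away.

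The K43M region in an intron of *Blnk* stood apart in this respect. It lay at chr19:40936030-40936489, summit at 57889 bp, and had 6.18 and 6.61 in the K43M lists, at percentiles 28.4 and 34.2. The nearest WT peaks were 26522 and 26490 bp away. Its pileups of 12 and 12 read ends were small. The bases around its summit, with CAGGTG in capitals, are shown because, of these 5 regions, it lay farthest from a peak of the other genotype.
*Blnk*, intron, chr19:40936159-40936359, plus strand: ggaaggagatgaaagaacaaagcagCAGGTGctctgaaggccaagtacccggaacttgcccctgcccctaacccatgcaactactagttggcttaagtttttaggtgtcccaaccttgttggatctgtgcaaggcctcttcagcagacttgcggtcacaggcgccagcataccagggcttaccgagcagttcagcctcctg

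A limma fit of log2 fold enrichment over the 21012 regions found in all 4 lists tested for a difference between the genotypes. At an adjusted p under 0.05 it called 0% of them higher and 0% lower in K43M, and 12.4% had an unadjusted p under 0.05. None of the 32 regions of the 9 genes was called, and 2 had an unadjusted p under 0.05, the *Btk* intron and the downstream *Cd79b* region. Of the 32, 17 had a difference above 0, against 50.2% of all regions. The median difference was 0.015 over the 32 and 0.0015 over all regions. The differences ranged from -0.35 to 0.51, all within the central 95% of all regions (-0.53 to 0.58).

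**Figure D5:**
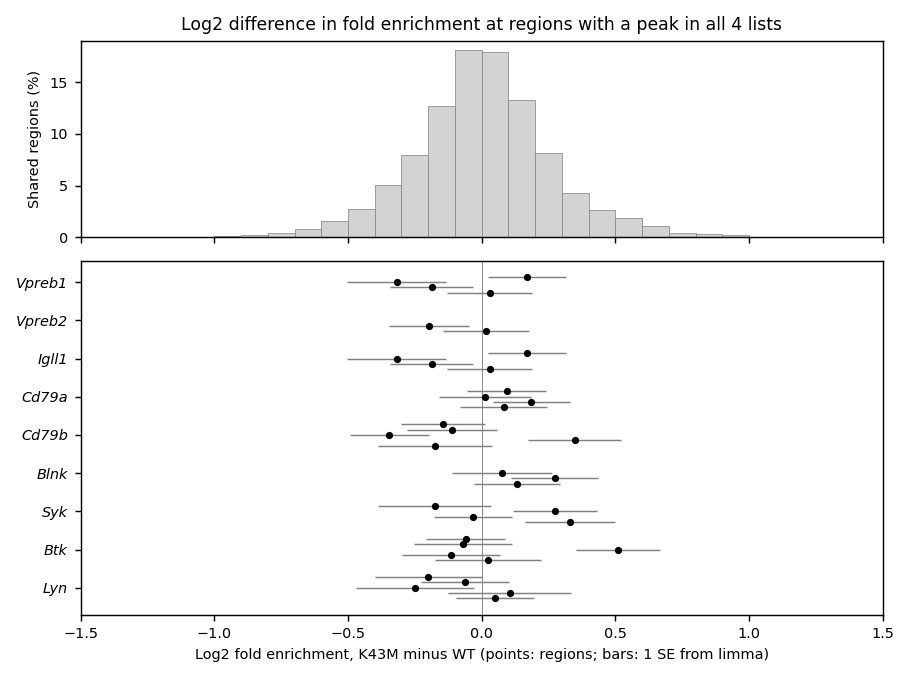
Log2 difference in fold enrichment, K43M minus WT (x axis), for all 21012 regions found in all 4 lists (top, share of regions in %) and for the regions in the window of each of the 9 genes (bottom, points with 1 SE from limma; regions of the *Vpreb1* and *Igll1* windows are the same). All points lie between -0.35 and 0.51.

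Of 28 other genes of pre-B-cell and B-cell receptor signalling, 26 had a promoter peak in all 4 lists, against 47.5% of all protein-coding genes. The 26 included the inhibitory receptors *Cd22*, *Cd72* and *Fcgr2b*, the kinases *Blk* and *Fyn*, and *Pik3cd*. Also among them were *Plcg2*, the phospholipase downstream of Btk, and *Bcl10* and *Malt1*, which lead to NF-κB. The remaining 2 were marked in both WT lists and in neither K43M list, a pattern of 0.513% of all protein-coding genes. None had the opposite pattern, which 1.99% showed. *Ighm*, the heavy chain of the receptor itself, had 4.49 and 3.66 in the WT lists, at percentiles 61.5 and 35.0. *Dok3*, an adaptor that dampens receptor signalling, had 5.69 and 4, at percentiles 49.1 and 17.4. They lie on chromosomes 12 and 13, where the local background was lower in the K43M lists. Relative to the autosomal median of each list, on the log2 scale, chromosome 12 had -0.01 in both WT lists and -0.34 and -0.22 in the K43M lists. Chromosome 13 had the values given above for *Syk*. Whether this background had a part in the missing peaks was not tested.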

How the data were processed

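ATAC-seq peaks of 4 BCR-ABL(p185) lines were analysed. Per the study's methods and the submitters' processing notes, the authors trimmed reads (Trimmomatic 0.36), mapped them to mm10 (BWA 0.7.15), removed blacklisted regions and reads of several positions or low quality, and called peaks for each library (MACS2 2.1.0). The deposited fold enrichment is a ratio, (pileup + 1) over (local background + 1), and the authors also gave -log10 p- and q-values. Reads were not analysed here. A Poisson model gave pileup and background back for 100% of the peaks, with a tolerance of 0.001 on the log10 scale. The genome-wide background was 48.4 to 65.3 read ends per 10 kb.

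Starts came from GENCODE mouse release 21. In each region the peak with the highest -log10 q gave the value of a list. Regions with 4 values were tested with limma 3.58.1 (R 4.3.3) on log2 fold enrichment centred on each list's median, with Benjamini-Hochberg adjustment over all of them. The fit was tested on simulated data with changes larger than any at the shared regions of the 9 genes. That does not show whether changes of the size seen there would be called. Lines were grouped by their labels, and the list without a sample was placed by the series' description. Nothing in the labels says more of the lines' origin, so p-values measure the spread between these lines. The genes, lists, words and tests were chosen with earlier results of these data known. Named were all 9 genes with their promoter regions, the regions in both lists of 1 genotype and neither of the other, each gene's highest-ranked shared distal region, and pathway genes whose promoter status differed between genotypes or that had no promoter peak. The 2 regions with an unadjusted p under 0.05 and the neighbours of such regions were added after their values were seen. Further pathway genes were named as examples, as was the remaining region of the *Vpreb1* and *Igll1* windows. Of the genes in these lists, 2 are not reported here and are not counted. The alternatives changed the peak threshold, number of peaks, overlap, windows, libraries, measure, centring and filter. Python 3.11.15, numpy 2.4.6, scipy 1.17.1, pysam 0.24.0 and matplotlib 3.10.9 were used.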

Additional observations from a re-analysis of the deposited data

How the results depend on the processing

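Of 128 alternative values of the results on the 9 genes, 104 did not reverse direction or cross the threshold, or for counts stayed within 1.5 times. The size of a difference could change. A further 14 changed direction, and 10 moved, among them a median that also changed sign. Under the alternatives run, the number of regions was 49 to 87, the number found in every list 25 to 47, the genes with a promoter peak in every list 6 to 9 (6 with promoters of 500 bp on either side of a start), and limma called none of the genes' shared regions. The count of WT regions was small and moved most. It was 1 with -log10 q of at least 5, with 50% overlap or with windows of 10 kb, 4 with equal numbers of peaks, and between 3 and 8 with a library left out (5 without WT unnumbered, 8 without K43M replicate 1). The K43M regions numbered 3 to 6 with a library left out (5 without WT replicate 2 or K43M replicate 1, 6 without K43M replicate 2). With a library left out, its genotype rests on 1 list. This loosens both definitions, so higher counts follow in part from the setting itself. The difference in mean peaks was 0 with windows of 10 kb, counted among the 104, and 1.5 with windows of 50 kb. It was -3 with equal numbers of peaks and -3 to 2 with a library left out (2 without WT replicate 2, 1.5 without K43M replicate 2). The median log2 difference of the shared regions was -0.066 without WT replicate 2 and at most 0.033 without another library. With the summit pileup, 5 of the 32 shared regions had an unadjusted limma p under 0.05, against 2 in the main fit. The smallest adjusted limma p among the 32 was then 0.0886, against 0.254 in the main fit. With this measure, promoter differences changed sign at *Igll1* (-0.26), *Syk* (-0.34) and *Btk* (0.23). With a library left out they ranged from -0.089 to 0.15 at *Igll1*, -0.17 to 0.19 at *Cd79a*, -0.11 to 0.27 at *Blnk* and -0.26 to 0.13 at *Btk*. Over all 21012 regions limma called 24 higher and 11 lower with the pileup, 17 and 4 without WT unnumbered, 21 and 8 without WT replicate 2, and 21 and 20 among those at or above the median -log10 q. The cause was not tested. A lone library is assumed to vary like the pair of the other genotype. No paired analysis was made, because the labels give no pairing of lines across the genotypes. Depth limits absence: a missing peak means a signal under the list's threshold.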
